A study of Homo sapiens with 8 samples.

Results

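Aminoacyl-tRNA synthetases, the enzymes that load each tRNA with its amino acid, are described here through 36 genes, 20 for enzymes of the cytosol and 16 for enzymes of mitochondria (symbols ending in 2). The members were taken by symbol from the expression tables of both cell lines, and all 36 were found once among the 56269 rows of each table. The symbols are older ones, so that AARS, for example, stands for the gene now named AARS1.

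RNA-Seq was done on SNU1079 and SSP25, a pair of cell lines from cholangiocarcinoma (CCA), cancer of the bile duct. Each line was exposed for 48 h to BETp plus mTORi together (the combination, for which the labels state no doses), to mTORi alone (AZD8055, an inhibitor of mTORC1 and mTORC2, 50 nM), to BETp alone (ARV825, a degrader of BET bromodomain proteins, 40 nM) or to vehicle (0.01% DMSO). There was 1 library for each line and treatment, 8 in all. The labels give the tissue as liver and both genotypes as wildtype, although the paper reports mutations of IDH1 and ARID1A in SNU1079. The study asked how the combination acts on CCA cells.

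Cells keep separate synthetases because protein is made in both compartments: the cytosolic enzymes serve the ribosomes that read nuclear mRNAs, and the mitochondrial enzymes serve the few mRNAs of the mitochondrial genome. Several cytosolic enzymes sit together in the multisynthetase complex, held by scaffold proteins. In mammalian cells many cytosolic synthetase genes are known targets of ATF4, a transcription factor of amino acid stress whose synthesis mTORC1 promotes. GARS and KARS each encode both a cytosolic and a mitochondrial enzyme and are counted with the cytosolic genes.

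The libraries of 1 line resembled each other (correlation of log2 values over genes 0.975 to 0.986) more than those of the other line (0.789 to 0.807), and no library stood apart from its line. The 6 biliary markers read here reached 1 TPM in each line, at a sum of 7498 to 10558 TPM in SNU1079 and 1915 to 2390 TPM in SSP25, although EPCAM lay between 0.90 and 1.74 TPM in SSP25. Fibroblast markers summed to 274 to 1004 TPM in SNU1079, nearly all of it COL1A1 with DCN at 0, and to 1.71 to 4.74 TPM in SSP25. The COL1A1 value was lower in each treated SNU1079 library than in its vehicle library, and its part in the results was not tested. Leukocyte markers summed to 76.4 to 210 TPM, nearly all of it CD68. The 6 hepatocyte markers summed to 8.52 to 45.5 TPM in SNU1079 and 0.11 to 0.67 TPM in SSP25, with ALB below 1 TPM and APOB at 0 in every library. Most of the SNU1079 sum was SERPINA1, which had 7.64 TPM with the combination, 17.7 with mTORi, 16.6 with BETp and 41.8 with vehicle. Its value was thus also lower in each treated SNU1079 library, and its part in the results was not tested. The unit of the tables, TPM, is a transcript's share of a fixed total after division by its length, so that read depth is unknown, and lower TPM of a gene and higher TPM of others cannot be told apart. Nor can fewer expressing cells and less RNA per cell.

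Promoter stretches are shown first for the 6 cytosolic genes that hold the letters TGATGCAA, a core of the C/EBP-ATF response element that ATF4 can bind as a dimer, since these genes recur in the results. The windows run from 250 bases before to 50 after the RefSeq start site on GRCh38.p14, while gene positions given further on are on GRCh37, the build of the deposited tables. Capitals mark the 8 letters, read in reverse complement in all but NARS.
AARS: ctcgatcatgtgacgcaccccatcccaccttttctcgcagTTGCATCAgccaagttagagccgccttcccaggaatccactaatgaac
CARS: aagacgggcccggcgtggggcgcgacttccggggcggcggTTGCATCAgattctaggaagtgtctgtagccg
IARS: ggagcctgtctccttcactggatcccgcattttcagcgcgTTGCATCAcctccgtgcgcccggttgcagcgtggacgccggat
MARS: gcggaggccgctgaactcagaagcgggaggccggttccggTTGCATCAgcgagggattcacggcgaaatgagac
NARS: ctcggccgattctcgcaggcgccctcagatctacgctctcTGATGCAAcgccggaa
TARS: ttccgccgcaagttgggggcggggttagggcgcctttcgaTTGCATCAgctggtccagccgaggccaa

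The stretches lie at chr16:70289646-70289733 (AARS, minus strand), chr11:3057394-3057465 (CARS, minus strand), chr9:92293668-92293750 (IARS, minus strand), chr12:57488024-57488097 (MARS, plus strand), chr18:57621807-57621862 (NARS, minus strand) and chr5:33440927-33440994 (TARS, plus strand). In MARS, CARS, TARS and NARS the letters start within 15 bases of the RefSeq start site or cross it, in IARS they end 6 bases before it, and in AARS they lie at positions -187 to -180 from it. CARS and TARS each had 2 windows, from different start sites, and the letters were in only 1 of them. RefSeq held a promoter window for 16 of the 20 cytosolic and 14 of the 16 mitochondrial genes (none for DARS, LARS, VARS, YARS, AARS2 and VARS2). TGATGCAA, searched on both strands, was in 6 of the 16 cytosolic and 0 of the 14 mitochondrial genes, against 1.08% of all 27305 genes with a window (0.866% of the 35116 windows, since some genes have several). The looser TGATGNAA, which contains TGATGCAA, was in 7 cytosolic genes (GARS in addition) and 1 mitochondrial gene (YARS2), against 4.46% of all genes (3.62% of windows).

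The 6 cytosolic genes with TGATGCAA were all among those called lower under the combination, as described next, and their median change there was -0.93, against -0.33 for the 10 cytosolic genes with a window but without these letters. With mTORi the medians were -0.50 and -0.30. WARS and GARS fell without the letters in the window. A match of letters is a description and not a binding site, and the genes were compared without a test.

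**Figure D1:**
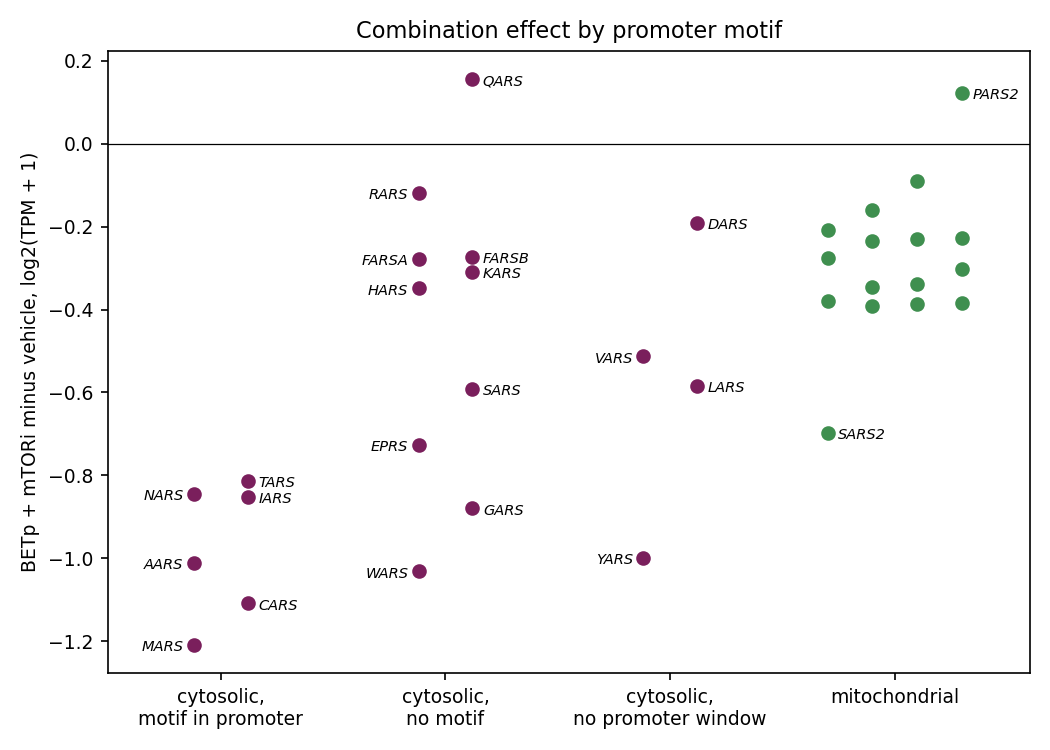
Change under the combination against vehicle in log2(TPM + 1) (vertical axis) for each synthetase gene (points), grouped by whether the 8-letter motif was found in the promoter window (horizontal axis). The 6 genes with the motif lie between -1.21 and -0.81, and the cytosolic genes without it between -1.03 and 0.16.

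Under the combination, cytosolic synthetase genes were lower as a group in both lines, while the mitochondrial genes moved less. limma, a linear model fitted to log2(TPM + 1) of the 16060 genes that reached 1 TPM in 2 or more libraries, called 9 of 20 cytosolic genes lower and 0 higher against vehicle (Benjamini-Hochberg adjusted p under 0.05 over all genes). The lines served as replicates, and no source states separate cultures, so the p-values measure only the spread between these libraries. None of the 16 mitochondrial genes was called, and 3 had an unadjusted p under 0.05, as did 4148 of all 16060 genes. Over all genes, 1.52% were called lower in this comparison. The median change was -0.66 for cytosolic genes and -0.29 for mitochondrial genes, against -0.19 over all genes tested. All changes are differences on this log2 scale, which understates the changes of low genes.

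MARS (chr12:57869228-57911352, plus strand) and CARS (chr11:3022152-3078843, minus strand), which attach methionine and cysteine, had the largest falls. MARS measured 62.1 TPM with the combination, 107 with mTORi, 102 with BETp and 141 with vehicle in SNU1079, and 92.7 with the combination, 92.4 with mTORi, 145 with BETp and 222 with vehicle in SSP25. CARS measured 21.6 TPM with the combination, 33.8 with mTORi, 38.6 with BETp and 60.9 with vehicle in SNU1079, and 111 with the combination, 117 with mTORi, 163 with BETp and 189 with vehicle in SSP25. In both genes the combination and mTORi libraries lay below the vehicle library of their line, and SSP25 mTORi and combination values of MARS were nearly equal. The change under the combination was -1.21 ± 0.20 for MARS and -1.11 ± 0.17 for CARS (SE, limma adjusted p = 0.045 and 0.0417).

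WARS (chr14:100800127-100843142, minus strand), the tryptophan enzyme, is also induced by interferon gamma, and YARS (chr1:33240838-33283632, minus strand) attaches tyrosine. WARS measured 21.2 TPM with the combination, 33.7 with mTORi, 39.9 with BETp and 45.3 with vehicle in SNU1079, and 98.02 with the combination, 117 with mTORi, 139.7 with BETp and 197 with vehicle in SSP25. YARS measured 47.1 TPM with the combination, 69.2 with mTORi, 67.6 with BETp and 109.5 with vehicle in SNU1079, and 133 with the combination, 136 with mTORi, 182 with BETp and 233 with vehicle in SSP25. Combination values were the lowest of each line and vehicle values the highest for both genes. They changed by -1.03 ± 0.13 for WARS and -1.0002 ± 0.15 for YARS (limma adjusted p = 0.0337 and 0.0393).

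Alanine is loaded by AARS (chr16:70285886-70323610, minus strand), glycine by GARS (chr7:30620149-30673649, plus strand). AARS measured 63.6 TPM with the combination, 116 with mTORi, 93.8 with BETp and 154 with vehicle in SNU1079, and 84.7 with the combination, 93.5 with mTORi, 117 with BETp and 144 with vehicle in SSP25. GARS measured 163 TPM with the combination, 229 with mTORi, 265 with BETp and 359 with vehicle in SNU1079, and 163 with the combination, 158 with mTORi, 226 with BETp and 251 with vehicle in SSP25. For AARS, the SNU1079 BETp value was below the mTORi value, whereas in SSP25 the order was the opposite. GARS was the most abundant synthetase transcript of untreated SNU1079 cells, and its 2 lowest values in SSP25 were close together. The combination changes were -1.01 ± 0.18 for AARS and -0.88 ± 0.14 for GARS (limma adjusted p = 0.0489 and 0.0438).

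IARS (chr9:94972489-95056136, minus strand), NARS (chr18:55267888-55289445, minus strand) and TARS (chr5:33440802-33468196, plus strand) attach isoleucine, asparagine and threonine. IARS measured 57.8 TPM with the combination, 80.3 with mTORi, 80.01 with BETp and 114 with vehicle in SNU1079, and 111 with the combination, 120.1 with mTORi, 143 with BETp and 186 with vehicle in SSP25. NARS measured 96.5 TPM with the combination, 143 with mTORi, 138 with BETp and 183 with vehicle in SNU1079, and 75.4 with the combination, 91.2 with mTORi, 106 with BETp and 129.9 with vehicle in SSP25. TARS measured 85.3 TPM with the combination, 133 with mTORi, 121 with BETp and 155 with vehicle in SNU1079, and 196 with the combination, 208 with mTORi, 259 with BETp and 336 with vehicle in SSP25. In all 3 genes the vehicle library was the highest and the combination library the lowest of each line. Their combination changes lay close together, at -0.85 ± 0.11 for IARS, -0.85 ± 0.11 for NARS and -0.81 ± 0.14 for TARS (limma adjusted p = 0.0341, 0.0335 and 0.0481).

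**Figure D2:**
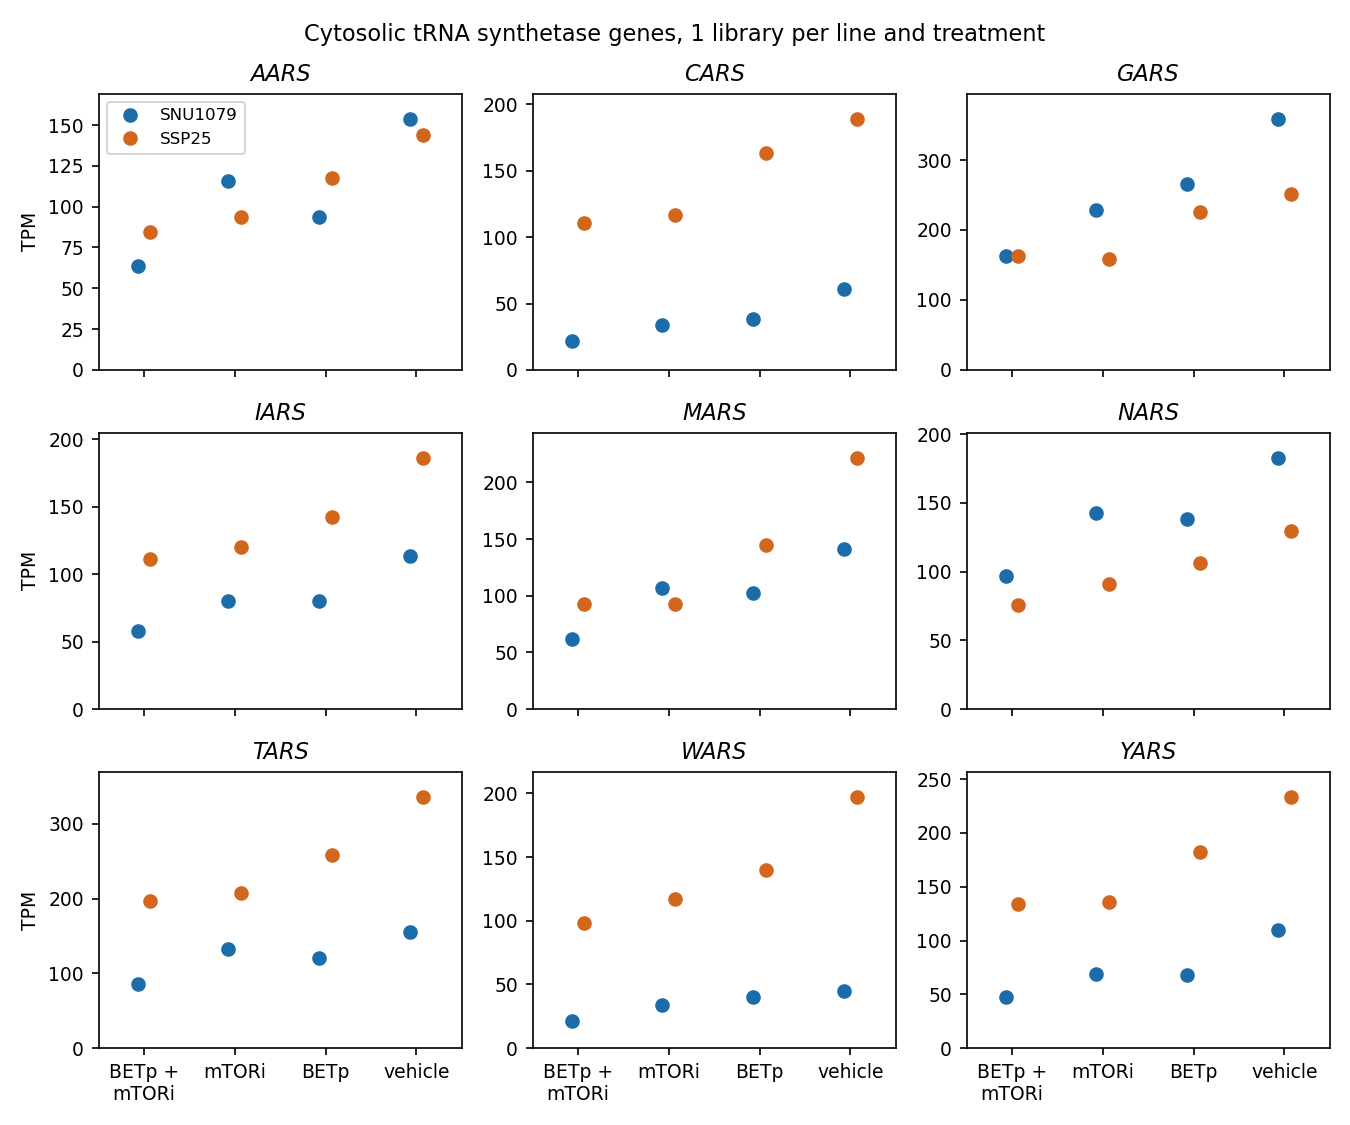
TPM of the 9 cytosolic synthetase genes called lower under the combination (vertical axis) in each treatment, with 1 point per library, SNU1079 in blue and SSP25 in orange. Vehicle is the highest point and the combination below vehicle in every panel and line; MARS in SSP25, for example, had 92.7 TPM with the combination and 222 TPM with vehicle.

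These calls sat close to the threshold and moved with single libraries and with the scale. With a pseudocount of 0.1 only IARS, NARS and WARS were called, and with a filter at 5 TPM 12 cytosolic genes and SARS2. Without the SNU1079 mTORi library or without the SSP25 mTORi library, 7 cytosolic genes were called, and without any one of the other 6 libraries 0. The count was also 0 with no filter, with quantile normalization, with rescaling to a common total without mitochondrial and ribosomal protein genes, with robust moderation and without the cell line as a block. Quantile normalization set the median of all genes at 0.0010, a shift of the scale that left the cytosolic median at -0.46 and the mitochondrial median at -0.08. Directions moved less: 19 of 20 cytosolic genes were below 0 in each of these fits, except 17 after quantile normalization and 18 after rescaling. Before these changes to the fit, 11731 of all 16060 genes were below 0.

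A further 9 cytosolic genes were lower with the combination in both lines without passing the test, HARS (described with mTORi) and 8 whose values follow. EPRS, a single protein that attaches both glutamate and proline, changed by -0.73 ± 0.15, and SARS, the serine enzyme, by -0.59 ± 0.11 (limma adjusted p = 0.0585 and 0.0512). VARS measured 76.3 TPM with the combination, 83.3 with mTORi, 99.7 with BETp and 110.4 with vehicle in SNU1079, and 41.5 with the combination, 49.8 with mTORi, 49.5 with BETp and 59.03 with vehicle in SSP25. LARS measured 74.7 TPM with the combination, 107 with mTORi, 88.9 with BETp and 112 with vehicle in SNU1079, and 48.8 with the combination, 48.3 with mTORi, 52.3 with BETp and 74.2 with vehicle in SSP25. VARS and LARS attach valine and leucine, and vehicle was the highest library of each line for both. Their combination values were -0.51 ± 0.11 and -0.58 ± 0.15 (limma adjusted p = 0.0582 and 0.0805).

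KARS measured 129 TPM with the combination, 140.4 with mTORi, 156 with BETp and 161 with vehicle in SNU1079, and 99.8 with the combination, 105 with mTORi, 112 with BETp and 123 with vehicle in SSP25. RARS measured 55.5 TPM with the combination, 57.8 with mTORi, 66.2 with BETp and 62.6 with vehicle in SNU1079, and 88.5 with the combination, 95.5 with mTORi, 94.3 with BETp and 92.7 with vehicle in SSP25. KARS, the lysine enzyme, had its lowest value with the combination in each line, by a narrow margin, and RARS, the arginine enzyme, was nearly flat in SSP25. FARSB measured 29.4 TPM with the combination, 31.2 with mTORi, 35.5 with BETp and 32.1 with vehicle in SNU1079, and 23.4 with the combination, 24.2 with mTORi, 27.8 with BETp and 31.7 with vehicle in SSP25. FARSB and FARSA encode the subunits of the phenylalanine enzyme, and FARSB was higher with BETp than with vehicle in SNU1079. FARSA lay between 56.8 and 81.7 TPM in SNU1079 libraries and between 64.6 and 79.96 TPM in SSP25 libraries. EPRS lay between 74.5 and 142 TPM in SNU1079 libraries and between 75.2 and 116 TPM in SSP25 libraries, and SARS between 178 and 259.9 TPM in SNU1079 libraries and between 158 and 254 TPM in SSP25 libraries, both with vehicle highest in each line.

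QARS and DARS went another way. QARS measured 215 TPM with the combination, 177 with mTORi, 181 with BETp and 182 with vehicle in SNU1079, and 165 with the combination, 168 with mTORi, 176 with BETp and 156 with vehicle in SSP25. DARS measured 56.1 TPM with the combination, 62.9 with mTORi, 49.4 with BETp and 55.5 with vehicle in SNU1079, and 43.2 with the combination, 43.7 with mTORi, 60.2 with BETp and 57.3 with vehicle in SSP25. QARS attaches glutamine, and its combination value was above vehicle in both lines, by 0.16 ± 0.11 (limma adjusted p = 0.4). DARS attaches aspartate, and its mTORi and combination libraries were the 2 highest in SNU1079 and the 2 lowest in SSP25. QARS remained above 0 in the averaged mTORi and combination fits under every alternative run, whereas the small negative values of DARS and RARS turned positive after quantile normalization.

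**Figure D3:**
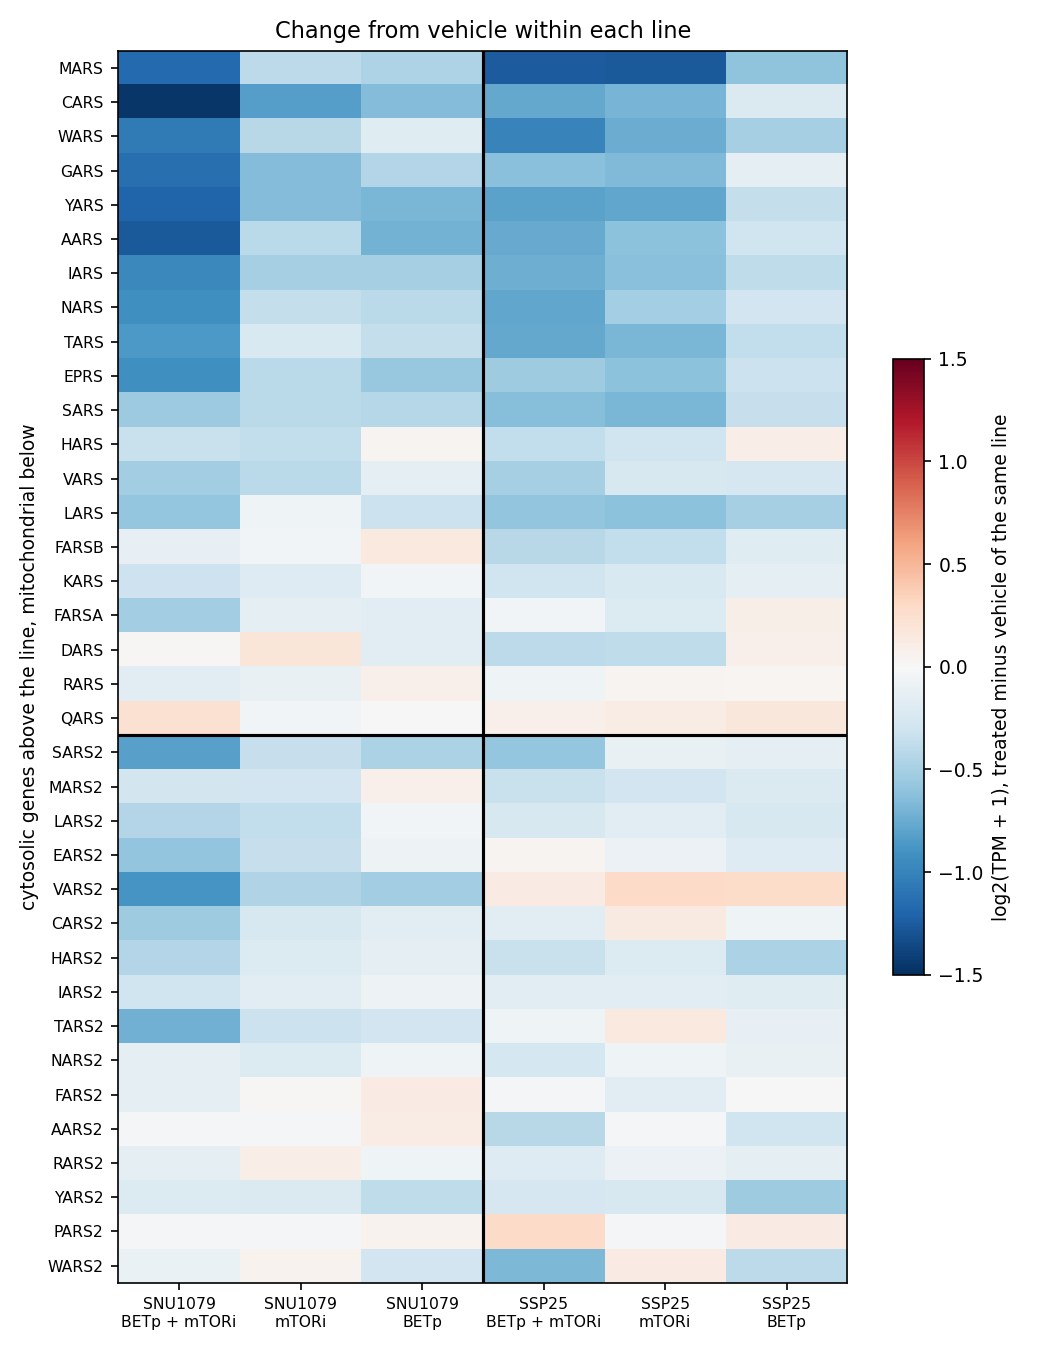
Change in log2(TPM + 1) from the vehicle library of the same line (colour) for 36 synthetase genes (rows, sorted by averaged mTORi effect within each compartment) in 6 treated libraries (columns). Cytosolic rows above the black line are mostly blue in all 6 columns, with QARS and DARS among the exceptions, and the median with the combination was -0.72 in SNU1079 and -0.61 in SSP25, against -0.29 and -0.22 for the mitochondrial rows.

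Averaged over both lines and over the presence of BETp, mTORi gave 7 cytosolic genes called lower, 0 higher, and 0 mitochondrial genes called, where 0.884% of all genes were called lower. The 7 were CARS at -0.72 ± 0.11, WARS at -0.64 ± 0.09, GARS at -0.62 ± 0.09, YARS at -0.60 ± 0.10, IARS at -0.49 ± 0.08, NARS at -0.47 ± 0.07 and HARS at -0.37 ± 0.06 (SE, limma adjusted p = 0.0428 to 0.0488). MARS had the largest change of the family, -0.75 ± 0.14, but missed the threshold with its larger error (limma adjusted p = 0.0518), as did AARS at -0.51 ± 0.12 and TARS at -0.45 ± 0.09 (0.0717 and 0.0595 by limma). The cytosolic median was -0.39, with 19 of 20 genes below 0 and 16 at an unadjusted p under 0.05, against -0.14 with 13 of 16 below 0 for mitochondrial genes and -0.11 over all genes. Of all 16060 genes, 11741 were below 0 and 3534 had an unadjusted p under 0.05. QARS was again the exception, at 0.05 ± 0.07. Without any one of the 8 libraries 0 cytosolic genes were called, and likewise with a pseudocount of 0.1, no filter, quantile normalization, rescaling, robust moderation or no block, against 10 with a filter at 5 TPM.

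HARS (chr5:140052620-140071122, minus strand), the histidine enzyme, was called with mTORi although not with the combination. HARS measured 39.95 TPM with the combination, 39.02 with mTORi, 51.9 with BETp and 50.5 with vehicle in SNU1079, and 36.3 with the combination, 38.1 with mTORi, 50.5 with BETp and 47.1 with vehicle in SSP25. Its values separated cleanly by mTORi and not by BETp: in each line both mTORi libraries were below both others, and the BETp value was slightly above vehicle. Such a separation held in both lines for 6 of 20 cytosolic genes (CARS, FARSB, GARS, HARS, KARS and WARS) and 1 of 16 mitochondrial genes (MARS2), against 13.3% of all genes. Counting only the 4 matched pairs of libraries with and without mTORi, 17 of 20 cytosolic and 5 of 16 mitochondrial genes were lower in all 4, against 26.2% of all genes. With the combination, 18 cytosolic and 13 mitochondrial genes were lower than vehicle in both lines, where 51.0% of all genes were.

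HARS lies head to head with HARS2, its mitochondrial counterpart, on chromosome 5, and their RefSeq start sites are 85 bases apart. The stretch between them is shown because 1 short region borders a gene that was called and one that was not.
HARS and HARS2: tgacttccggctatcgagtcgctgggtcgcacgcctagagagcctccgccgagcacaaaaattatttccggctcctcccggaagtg

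HARS2 measured 25.6 TPM with the combination, 30.2 with mTORi, 31.5 with BETp and 35.1 with vehicle in SNU1079, and 19.3 with the combination, 21.3 with mTORi, 17.5 with BETp and 24.6 with vehicle in SSP25. In SNU1079 the combination value of HARS2 was the lowest, and in SSP25 the BETp value was. HARS2 changed by -0.14 ± 0.09 with mTORi and -0.25 ± 0.09 with BETp, against -0.37 ± 0.06 and 0.03 ± 0.06 for HARS (limma adjusted p = 0.409 and 0.169 for HARS2). The stretch, chr5:140691370-140691455 on GRCh38.p14, holds neither motif. Whether the genes differed from each other in their response was not tested.

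BETp, averaged over both lines and over the presence of mTORi, gave a smaller cytosolic median change than mTORi in the fit, although not in SNU1079. NARS was the only member called, at -0.38 ± 0.07 (limma adjusted p = 0.0434), against 1.36% of all genes called lower, and it was not called when any one library was left out (limma adjusted p from 0.0661 to 0.128; from 0.0334 to 1 over all alternatives). AARS had the largest value, -0.50 ± 0.12, and MARS had -0.46 ± 0.14 (limma adjusted p = 0.0706 and 0.115). MARS passed without the SSP25 mTORi library, and over all alternatives its limma adjusted p ran from 0.0463 to 1. The cytosolic median was -0.29 with 18 of 20 below 0, the mitochondrial median -0.14 with 14 of 16 below 0, and that of all genes -0.08 with 10267 of 16060 below 0. By line, the medians with mTORi were -0.37 for cytosolic and -0.22 for mitochondrial genes in SNU1079, and -0.46 and -0.07 in SSP25. With BETp they were -0.41 for cytosolic and -0.15 for mitochondrial genes in SNU1079, but -0.15 and -0.16 in SSP25. The gap between the medians, -0.15 in the fit, became -0.069 without the SNU1079 BETp library, -0.077 without the SNU1079 mTORi library and -0.25 without the SSP25 mTORi library. In all 4 matched pairs with and without BETp, 9 cytosolic and 8 mitochondrial genes were lower, against 23.2% of all genes. The libraries with BETp lay wholly below those without it, in both lines, for 0 cytosolic genes and for 3 mitochondrial genes (RARS2, SARS2 and WARS2), against 9.82% of all genes.

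**Figure D4:**
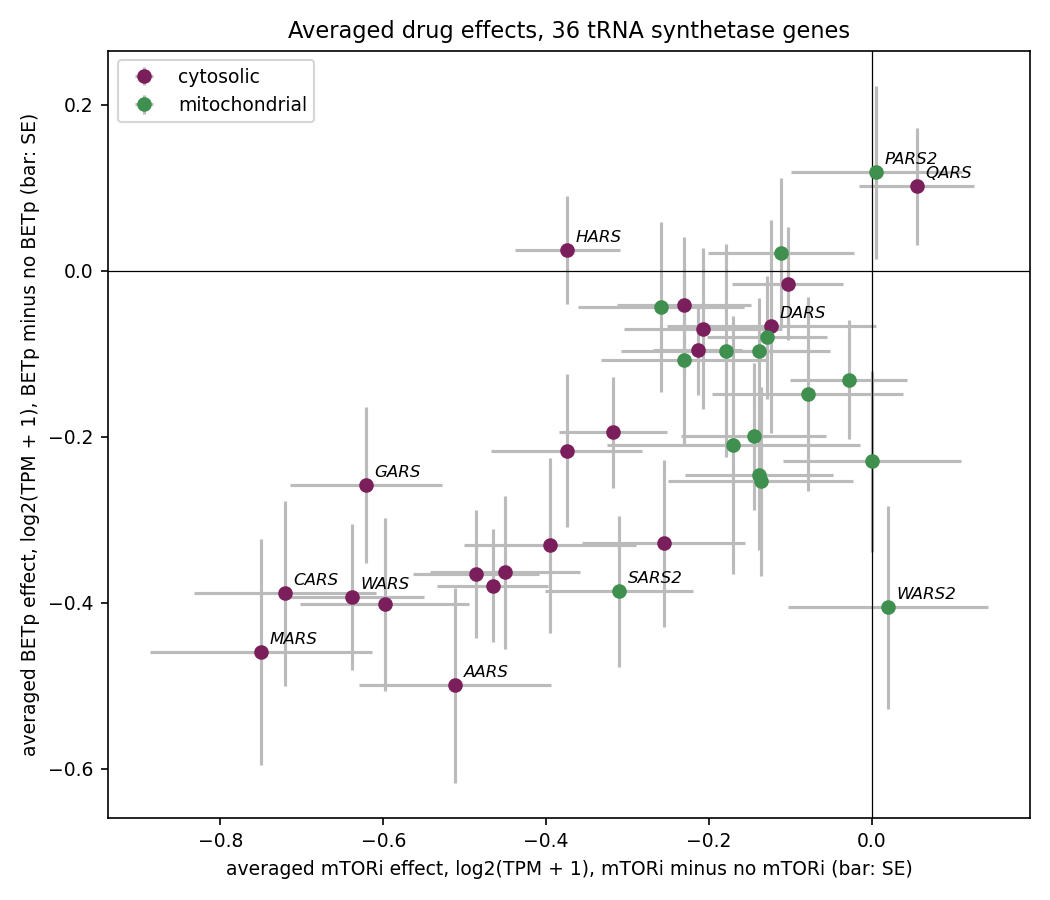
Averaged mTORi effect (horizontal axis) and averaged BETp effect (vertical axis) on log2(TPM + 1) for each gene, with the SE of each as grey bars, cytosolic genes in purple and mitochondrial genes in green. Cytosolic points extend to MARS at -0.75 and -0.46, whereas the mitochondrial point farthest left is SARS2, at -0.31 on the mTORi axis.

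Set against vehicle alone, neither single drug gave a called member. mTORi alone called 0.0125% of all genes and BETp alone 0.00623%, that is 2 and 1 of 16060. The cytosolic median was -0.44 with mTORi, with 13 genes at an unadjusted p under 0.05, and -0.34 with BETp, with 11 such genes. The mitochondrial medians were -0.11 with mTORi and -0.12 with BETp. Over all 16060 genes the medians were -0.11 with mTORi and -0.07 with BETp, with 1658 and 1429 genes at an unadjusted p under 0.05.

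The mitochondrial genes were expressed at lower levels and are given by their place in the results. SARS2, the serine enzyme, had the most negative change of the 16 under the combination, -0.70 ± 0.14 (limma adjusted p = 0.0546), and it was called only with the filter at 5 TPM. SARS2 measured 16.7 TPM with the combination, 23.5 with mTORi, 21.4 with BETp and 30.1 with vehicle in SNU1079, and 8.12 with the combination, 11.6 with mTORi, 11.5 with BETp and 12.7 with vehicle in SSP25. The combination library was the lowest of each line. Of the 100-base windows of the SARS2 transcript, 76.4% also occur in an overlapping readthrough gene, so that its TPM are uncertain. The same holds for VARS2, the valine enzyme, with 94.4% of windows in an overlapping gene. VARS2 measured 28.9 TPM with the combination, 39.2 with mTORi, 37.4 with BETp and 54.02 with vehicle in SNU1079, and 10.5 with the combination, 11.9 with mTORi, 11.8 with BETp and 9.56 with vehicle in SSP25. VARS2 was lower than vehicle in all 3 treated SNU1079 libraries and higher in all 3 treated SSP25 libraries.

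TARS2 measured 23.4 TPM with the combination, 31.04 with mTORi, 31.9 with BETp and 39.1 with vehicle in SNU1079, and 26.6 with the combination, 31.1 with mTORi, 25.5 with BETp and 27.9 with vehicle in SSP25. EARS2 measured 16.1 TPM with the combination, 19.3 with mTORi, 23.5 with BETp and 24.8 with vehicle in SNU1079, and 10.6 with the combination, 9.59 with mTORi, 8.84 with BETp and 10.2 with vehicle in SSP25. CARS2 measured 36.4 TPM with the combination, 44.8 with mTORi, 47.7 with BETp and 53.1 with vehicle in SNU1079, and 104 with the combination, 127 with mTORi, 111 with BETp and 115 with vehicle in SSP25. TARS2, EARS2 and CARS2 attach threonine, glutamate and cysteine. In SNU1079 all 3 were highest with vehicle and lowest with the combination, whereas in SSP25 vehicle was not the highest library for any of them. Averaged mTORi effects were -0.18 ± 0.13 for EARS2 and -0.15 ± 0.09 for CARS2, and TARS2 had a combination change of -0.39 ± 0.17, none of them called.

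MARS2 measured 7.91 TPM with the combination, 7.82 with mTORi, 10.3 with BETp and 9.75 with vehicle in SNU1079, and 3.26 with the combination, 3.40 with mTORi, 3.61 with BETp and 4.37 with vehicle in SSP25. LARS2 measured 6.83 TPM with the combination, 7.23 with mTORi, 9.30 with BETp and 9.59 with vehicle in SNU1079, and 9.33 with the combination, 9.93 with mTORi, 9.36 with BETp and 11.2 with vehicle in SSP25. MARS2 and LARS2, for methionine and leucine, had mTORi effects of -0.26 ± 0.10 and -0.23 ± 0.10, the largest of the mitochondrial genes after SARS2 (-0.31 ± 0.09), and neither was called. IARS2 measured 117 TPM with the combination, 128 with mTORi, 137 with BETp and 144 with vehicle in SNU1079, and 62.1 with the combination, 62.2 with mTORi, 61.7 with BETp and 70.1 with vehicle in SSP25. NARS2 measured 72.7 TPM with the combination, 70.00 with mTORi, 77.1 with BETp and 80.7 with vehicle in SNU1079, and 8.63 with the combination, 10.1 with mTORi, 9.76 with BETp and 10.6 with vehicle in SSP25. IARS2, for isoleucine, and NARS2, for asparagine, were highest with vehicle in each line.

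WARS2 measured 17.7 TPM with the combination, 19.6 with mTORi, 15.3 with BETp and 18.98 with vehicle in SNU1079, and 5.15 with the combination, 9.70 with mTORi, 6.50 with BETp and 8.84 with vehicle in SSP25. YARS2 measured 27.2 TPM with the combination, 27.01 with mTORi, 24.1 with BETp and 31.6 with vehicle in SNU1079, and 16.6 with the combination, 16.8 with mTORi, 13.4 with BETp and 19.96 with vehicle in SSP25. WARS2, the tryptophan enzyme, was lower with BETp than without it in every pair, by -0.41 ± 0.12 (limma adjusted p = 0.119), and had an averaged mTORi effect of 0.02 ± 0.12. YARS2, the tyrosine enzyme, was lowest with BETp alone in each line. RARS2 measured 13.3 TPM with the combination, 15.7 with mTORi, 13.96 with BETp and 14.6 with vehicle in SNU1079, and 45.03 with the combination, 48.6 with mTORi, 47.05 with BETp and 51.6 with vehicle in SSP25. PARS2 measured 3.90 TPM with the combination, 3.92 with mTORi, 4.20 with BETp and 4.02 with vehicle in SNU1079, and 8.06 with the combination, 6.33 with mTORi, 7.11 with BETp and 6.45 with vehicle in SSP25. RARS2 attaches arginine and PARS2 proline, and PARS2 was the 1 mitochondrial gene above 0 in the fitted combination change. AARS2, for alanine, lay between 5.75 and 6.46 TPM in SNU1079 libraries and between 4.81 and 6.78 TPM in SSP25 libraries, and FARS2, for phenylalanine, between 10.3 and 12.6 TPM in SNU1079 libraries and between 10.6 and 12.02 TPM in SSP25 libraries.

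For 13 amino acids with a single measured gene of their own in each compartment, the compartments were compared within an amino acid. Glutamate and proline (EPRS, with EARS2 and PARS2) and phenylalanine (FARSA and FARSB, with FARS2) were measured in both compartments but left out of this comparison. The cytosolic change was more negative than the mitochondrial one for 13 of 13 with mTORi, of which 8 were so in all 4 matched pairs, and for 8 of 13 with BETp, 2 of them in all 4 pairs. With the combination it was so for 10 of 13, and for 9 in both lines. The differences were widest for methionine (-0.91), alanine (-0.78) and tyrosine (-0.77), and they were 0.04 for histidine, 0.04 for arginine and 0.10 for serine. The serine and valine differences rest on SARS2 and VARS2, whose TPM are uncertain. With mTORi the differences were close to 0 for leucine (-0.03), serine (-0.06) and arginine (-0.07). Leucine and serine were negative in only 2 of 4 matched pairs. These values are descriptions without a test, and amino acids are not replicates of a condition.

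**Figure D5:**
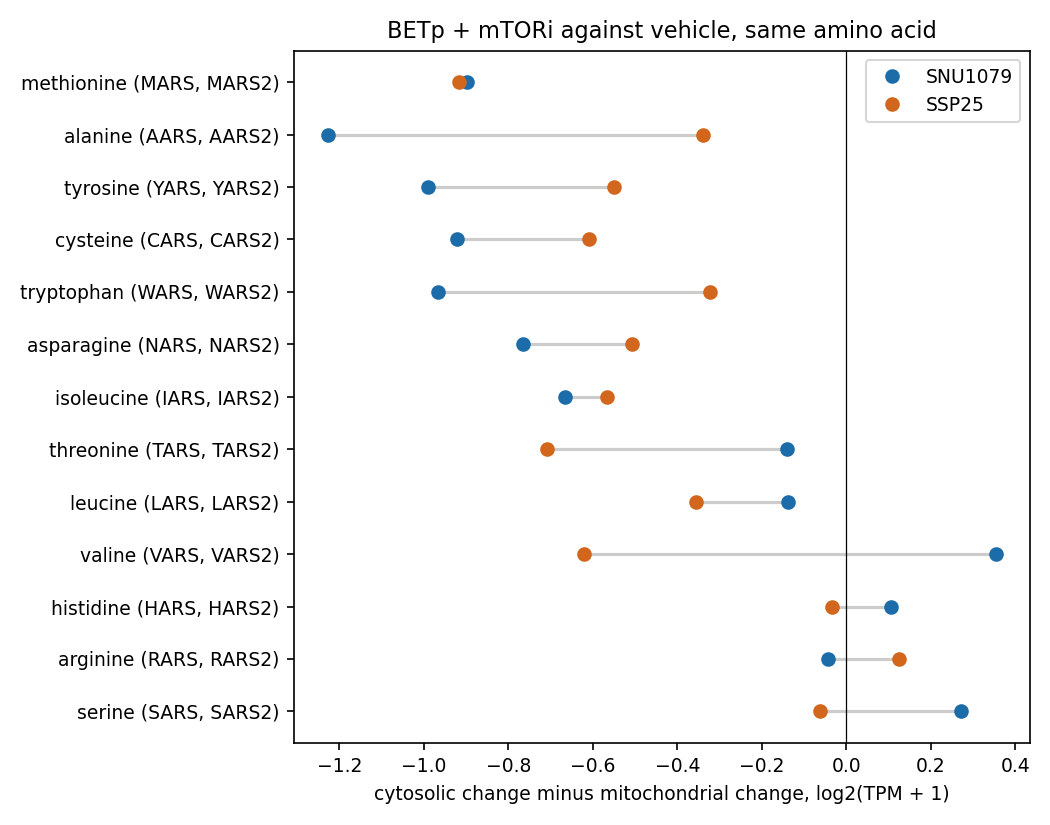
Change under the combination of the cytosolic gene minus that of the mitochondrial gene for the same amino acid, in log2(TPM + 1) against vehicle (horizontal axis), for 13 amino acids (rows), with SNU1079 in blue and SSP25 in orange. Points of 9 rows lie below 0 in both lines, and valine is split, at 0.36 in SNU1079 and -0.62 in SSP25. The valine and serine rows rest on VARS2 and SARS2, whose TPM are uncertain.

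In summed level, the 20 cytosolic genes made up 1603 TPM with the combination, 2020 with mTORi, 2035 with BETp and 2570 with vehicle in SNU1079, and 1927 with the combination, 2004 with mTORi, 2477 with BETp and 2975 with vehicle in SSP25. The 16 mitochondrial genes made up 430 TPM with the combination, 485 with mTORi, 503 with BETp and 567 with vehicle in SNU1079, and 353 with the combination, 396 with mTORi, 361 with BETp and 402 with vehicle in SSP25. Cytosolic sums were thus lowest with the combination in each line, and in SSP25 the mTORi and combination sums were close.

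The lines differed in what BETp added to mTORi, as a description of single libraries. The median change of cytosolic genes from mTORi alone to the combination was -0.48 in SNU1079 and -0.06 in SSP25. For AARS it was -0.85 in SNU1079 and -0.14 in SSP25. Against vehicle, the cytosolic median with BETp alone was -0.34 in SNU1079 and -0.27 in SSP25. With mTORi alone it was -0.38 in SNU1079 and -0.61 in SSP25, and with the combination -0.72 and -0.61. In SSP25 the mTORi library thus already lay near the combination. In the fit with a separate effect for each line, no member was called for a line difference in the averaged BETp effect, where 0.00623% of all genes were. The lowest p-values were those of AARS, CARS and GARS, whose SSP25 minus SNU1079 differences were 0.56 ± 0.11, 0.49 ± 0.11 and 0.41 ± 0.10 (limma adjusted p = 0.22, 0.24 and 0.268).

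For the averaged mTORi effect, 0% of all genes were called for a line difference (0 of 16060 by limma, 2282 at an unadjusted p under 0.05, among them DARS, CARS2, EARS2 and TARS2). DARS differed by -0.61 ± 0.11, TARS2 by 0.48 ± 0.12 and EARS2 by 0.51 ± 0.18, SSP25 minus SNU1079 (limma adjusted p = 0.231, 0.252 and 0.32). Departure from additivity of the drugs was likewise called for 0% of genes (0 by limma, 322 at an unadjusted p under 0.05, YARS2 the only member among them). YARS2 departed by 0.46 ± 0.17, SARS by 0.34 ± 0.16 and EPRS by 0.22 ± 0.21, and the median departure was 0.01 for cytosolic and -0.03 for mitochondrial genes.

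In level, the lines differed for most members as they did for most genes: limma called 25 of 36, 13 cytosolic and 12 mitochondrial, against 74.0% of all genes, so the share is near the background. Rescaling without abundant groups set the median of all genes at 0.28, against 0.05 as deposited, and then 11 cytosolic genes were called higher in SNU1079 and 6 lower. Among cytosolic genes, WARS (-1.95 ± 0.09), CARS (-1.94 ± 0.12), YARS (-1.24 ± 0.10), TARS (-1.01 ± 0.10), IARS (-0.76 ± 0.08), RARS (-0.61 ± 0.07) and MARS (-0.38 ± 0.14) were lower in SNU1079 than in SSP25. VARS (0.87 ± 0.08), LARS (0.77 ± 0.11), NARS (0.47 ± 0.08), KARS (0.41 ± 0.06), GARS (0.32 ± 0.10) and FARSB (0.26 ± 0.09) were higher in SNU1079. The calls of MARS, GARS and FARSB were lost when single libraries were left out (limma adjusted p over the libraries left out from 0.0010 to 0.159 for MARS, from 0.0070 to 0.0881 for GARS and from 0.0176 to 0.127 for FARSB), MARS without any library but the mTORi ones, GARS without either vehicle or mTORi library or the SNU1079 BETp library, and FARSB without any library but the vehicle ones.

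Of the mitochondrial genes, 9 were called higher in SNU1079 and 3 lower, where 38.2% of all genes were higher and 35.8% lower. Whether the split differs from that of other genes was not tested. NARS2 was the most different member, at 2.82 ± 0.08, followed by VARS2 at 1.75 ± 0.16, WARS2 at 1.17 ± 0.13, MARS2 at 1.09 ± 0.11, IARS2 at 1.02 ± 0.07, EARS2 at 1.0033 ± 0.14, SARS2 at 0.99 ± 0.10, YARS2 at 0.69 ± 0.08 and HARS2 at 0.55 ± 0.10. RARS2 (-1.67 ± 0.08), CARS2 (-1.32 ± 0.09) and PARS2 (-0.67 ± 0.12) were lower in SNU1079. The values of VARS2 and SARS2 are uncertain because of their overlapping genes. For asparagine the lines thus held different ratios of the cytosolic to the mitochondrial transcript, 2.26 in untreated SNU1079 cells and 12.3 in untreated SSP25 cells. Other amino acids also differed, with ratios of 2.39 and 22.3 for tryptophan and 14.4 and 50.8 for methionine. For alanine, leucine and arginine the ratio was higher in SNU1079.

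Neighbouring parts of the translation machinery were read beside the synthetases. Of the 8 enzymes of the multisynthetase complex, 2 were called lower with the combination (IARS and MARS), with a median of -0.45, and of the 12 outside it 7, with a median of -0.83 (1.52% of all genes were called lower). This split was made after the values were seen, and 0 genes of either kind were called without any one of the 6 libraries other than mTORi alone. The scaffold genes AIMP1, AIMP2 and EEF1E1 were not called, and their combination changes were -0.18 ± 0.12, -0.44 ± 0.09 and -0.43 ± 0.12. None of 15 mitochondrial translation factors was called with mTORi (median -0.18). Among 7 cytosolic elongation factors, EEF1A1, which delivers loaded tRNAs to the ribosome, was higher with mTORi, at 0.37 ± 0.05 (limma adjusted p = 0.0428), where 0.162% of all genes were called higher, and the list median was 0.14. That call was lost when any one library was left out.

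ATF4 and reported ATF4 targets outside the family, 34 genes in all, were read in the same fits: 15 were called lower with the combination (median -0.86), 13 with mTORi (median -0.60) and 8 with BETp (median -0.32), and none higher. Over all genes, 1.52% were called lower with the combination, 0.884% with mTORi and 1.36% with BETp. Leaving out 1 library left 1 gene of the list called lower with mTORi and 1 to 3 with BETp. With the combination, 14 were called without the SNU1079 or without the SSP25 mTORi library, and 0 to 2 without any one of the others. The list medians over all alternatives ran from -0.90 to -0.64 with the combination, from -0.66 to -0.46 with mTORi and from -0.46 to -0.23 with BETp. The largest mTORi effects were those of DDIT4, an inhibitor of mTORC1 signalling (-1.87 ± 0.11), PSAT1, an enzyme of serine synthesis (-1.26 ± 0.21), and CHAC1, which degrades glutathione (-1.20 ± 0.18). ATF4 mRNA itself was not called (limma adjusted p = 0.426 with mTORi and 0.135 with the combination). It had 255 TPM with the combination, 352 with mTORi, 241 with BETp and 332 with vehicle in SNU1079, and 314 with the combination, 358 with mTORi, 417 with BETp and 473 with vehicle in SSP25. ATF4 protein was not analysed here.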

How the data were processed

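RNA of 2 CCA cell lines was sequenced by the authors from strand-specific libraries, and the deposited tables give TPM for 56269 genes in 8 libraries. Per the labels, reads were placed on GRCh37 and DESeq2 and edgeR are listed in the submitters' processing notes. The read aligner is not given in the sources used here, nor is the gene annotation. Columns were matched to samples by their names.

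The 16060 genes that reached 1 TPM in 2 or more libraries were fitted as log2(TPM + 1) with limma 3.58.1 in R 4.3.3 (eBayes with a mean-variance trend, two-sided, Benjamini-Hochberg over all genes). Models held cell line, BETp and mTORi (4 residual degrees of freedom, averaged effects), cell line and treatment (3, other contrasts), or separate drug effects by line (2, line differences). The cell line was the replicate block, since each treatment had 1 library per line. Replicate numbers were the lines themselves, so the correlation of deviations (0.911 to 0.936) reflects the line difference and is no separate support for pairing. The model code was tested on simulated data. TPM keep no counts, so no count test was run and no interval for counting error is given.

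The 36 members and the other lists were chosen with earlier results of these data known. One biliary marker of the list is not reported here. All 36 members were matched to RefSeq. Values in every library were printed for members called in any comparison, those with the largest mTORi or combination changes, those of opposite sign, those of lowest p for line differences and additivity, and the HARS and WARS pairs. A window of 100 bases shared with another gene's transcripts (GENCODE 44 on GRCh37) marked uncertain reads. Alternatives were a smaller pseudocount (0.1), a filter at 5 TPM or none, quantile normalization, rescaling without abundant groups (transcripts of the mitochondrial genome, ribosomal protein genes, FTH1 and FTL), robust moderation without a trend, a fit lacking the block, and each library left out in turn.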

Additional observations from a re-analysis of the deposited data

How the results depend on the processing

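Numbers of called genes over the whole table moved with nearly every choice, while the cytosolic and mitochondrial synthetase medians for mTORi, BETp and the combination stayed below 0, and the cytosolic below the mitochondrial, in every alternative. With no filter 2 genes were called for mTORi, 21 for BETp, 2 for the combination, 1 for mTORi against vehicle and 0 for the line difference in BETp effect; with a filter at 5 TPM, which tests fewer genes, 483 for mTORi, 476 for BETp, 657 for the combination, 37 for the line difference in BETp effect and 9 for that in mTORi effect. A pseudocount of 0.1 gave 18 for mTORi, 86 for the combination, 0 for mTORi or BETp against vehicle, 0 for the line difference in BETp effect and a mitochondrial BETp median of -0.15. Quantile normalization gave 9 for mTORi (6 lower), 175 for BETp (63 lower), 21 for the combination (9 lower) and 1 for mTORi against vehicle, cytosolic medians of -0.26 with mTORi and -0.46 with the combination, and mitochondrial ones of -0.0011, -0.042 with BETp and -0.079. Rescaling gave 7 for mTORi (4 lower), 96 for BETp (50 lower) and 16 for the combination (9 lower), cytosolic medians of -0.30 and -0.51, and mitochondrial ones of -0.089 with BETp and -0.16 with the combination. As deposited, 142 of 168 calls for mTORi, 218 of 292 for BETp and 244 of 291 for the combination were lower. Robust moderation without a trend gave 1 for mTORi, 74 for BETp and 9 for the combination, and 1 each for mTORi against vehicle and departure from additivity. Without the replicate block, 0 genes were called in each of the 6 drug comparisons that could be fitted so. The level difference between lines kept its count within 1.5 times, but 4837 of 12702 calls were lower in SNU1079 after rescaling, against 5745 of 11881. The cause of these moves was not tested.

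Leaving out 1 library gave 1 to 7 genes for mTORi, 37 to 224 for BETp, 0 to 136 for the combination, 0 to 4 for mTORi and 0 to 4 for BETp against vehicle, 0 to 1 for additivity and 0 for the line difference in BETp effect. Medians then ran from -0.46 to -0.36 (cytosolic, mTORi), -0.17 to -0.080 (mitochondrial, mTORi), -0.18 to -0.11 (mitochondrial, BETp), -0.80 to -0.58 (cytosolic, combination) and -0.32 to -0.22 (mitochondrial, combination), and the gap between compartments from -0.48 to -0.35 with the combination, -0.37 to -0.20 with mTORi and -0.25 to -0.069 with BETp. Near 0, DARS became 0.020 with mTORi and 0.030 with the combination, and RARS 0.029 and 0.094, after quantile normalization, and RARS 0.031 with the combination after rescaling. The mTORi value of WARS2 ran from -0.072 to 0.14 with 1 library left out, at -0.035 for the SNU1079 vehicle, -0.072 for the SNU1079 combination and -0.053 for the SSP25 mTORi library. Of the single-gene values under alternatives (92 results), 1088 kept direction and call, 245 kept direction and lost the call, 8 gained it and 8 changed sign. The 1088 include genes that were never called and level differences between lines. Each of the 7 genes called for mTORi lost its call in 14 of 15 alternatives. The 9 genes called for the combination lost theirs in 11 to 14 of 15. TPM carry no depth, so how far counting error limits low genes such as PARS2 and MARS2 is unknown.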
